A study of Homo sapiens with 2 samples.

Results

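MALAT1, LINC-PINT and NEAT1 are long non-coding RNAs that stay in the cell nucleus. They were taken here by symbol, as all probe sets that the array's platform annotation pairs with 1 of the 3 names. This gave 2 of the 14884 genes named on the array, with 3 probe sets for MALAT1 and 3 for LINC-PINT, 6 of the 16098 probe sets that carry a gene name. NEAT1 had 0 and was therefore not analysed here. The genes were picked with their difference between the cultures already known, so that difference is given as a description and no test is made of it. RNA came from 2 cultures of AsPC-1, a cell line established from a human pancreatic adenocarcinoma, both grown in 3 dimensions under a collagen gel overlay for 24 h. The compressed culture was kept under a compressive stress of 2.9 mmHg, and the uncompressed culture was not. Each culture was read on 1 GeneChip Human Gene 2.0 ST array, so there is no spread between cultures and no p-value, and "higher" and "lower" below describe these 2 arrays only. The number of arrays limits the precision.

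MALAT1 is an abundant, mostly unspliced RNA that gathers in nuclear speckles, the bodies where splicing factors of the SR family are stored. Its end is not made by polyadenylation: RNase P cuts it, and the remaining end folds into a triple helix that protects the RNA, while the small fragment released is trimmed into a transfer RNA-like RNA. NEAT1, its neighbour on chromosome 11, is the scaffold of paraspeckles, bodies that hold RNA-binding proteins such as SFPQ, NONO and PSPC1. LINC-PINT, on chromosome 7, has been found to bind PRC2, the complex that methylates histone H3 at lysine 27.

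The promoters of both genes are shown because the genes differed together between the cultures. The RefSeq table (GRCh38.p14) matched 2 of the 3 names and gave 2 start sites for MALAT1 and 4 for LINC-PINT, with 250 bases before and 50 after each. The windows of LINC-PINT start sites 1 and 2 overlap, so only the first is printed. Capitals mark matches to 11 short motifs, searched on both strands.
MALAT1 start site 1, chr11:65497488-65497787, plus strand: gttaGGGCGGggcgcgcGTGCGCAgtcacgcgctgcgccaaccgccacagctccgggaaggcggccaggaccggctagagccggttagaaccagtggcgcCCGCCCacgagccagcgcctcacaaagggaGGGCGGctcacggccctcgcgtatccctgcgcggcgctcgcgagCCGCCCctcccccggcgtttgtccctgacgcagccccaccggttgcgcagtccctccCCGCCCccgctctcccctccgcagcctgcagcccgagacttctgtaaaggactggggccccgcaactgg
MALAT1 start site 2, chr11:65498795-65499094, plus strand: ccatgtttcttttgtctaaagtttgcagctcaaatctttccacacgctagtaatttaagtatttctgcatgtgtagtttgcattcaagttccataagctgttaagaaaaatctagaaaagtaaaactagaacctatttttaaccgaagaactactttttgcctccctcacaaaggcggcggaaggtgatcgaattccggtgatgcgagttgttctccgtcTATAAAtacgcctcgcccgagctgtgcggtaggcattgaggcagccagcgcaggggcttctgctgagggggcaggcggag
LINC-PINT start site 1, chr7:131109876-131110175, minus strand: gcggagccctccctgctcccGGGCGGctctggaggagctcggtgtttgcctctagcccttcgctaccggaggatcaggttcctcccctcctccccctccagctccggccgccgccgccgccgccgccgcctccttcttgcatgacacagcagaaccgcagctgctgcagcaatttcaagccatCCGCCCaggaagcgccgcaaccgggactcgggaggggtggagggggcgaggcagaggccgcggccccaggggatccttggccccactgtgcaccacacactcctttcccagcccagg
LINC-PINT start site 3, chr7:131106981-131107280, minus strand: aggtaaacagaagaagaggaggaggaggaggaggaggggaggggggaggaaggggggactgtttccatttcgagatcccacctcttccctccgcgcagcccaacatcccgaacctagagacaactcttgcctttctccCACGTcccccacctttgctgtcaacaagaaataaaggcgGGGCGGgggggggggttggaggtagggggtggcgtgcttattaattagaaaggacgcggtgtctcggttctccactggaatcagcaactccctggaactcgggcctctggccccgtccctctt
LINC-PINT start site 4, chr7:130913261-130913560, minus strand: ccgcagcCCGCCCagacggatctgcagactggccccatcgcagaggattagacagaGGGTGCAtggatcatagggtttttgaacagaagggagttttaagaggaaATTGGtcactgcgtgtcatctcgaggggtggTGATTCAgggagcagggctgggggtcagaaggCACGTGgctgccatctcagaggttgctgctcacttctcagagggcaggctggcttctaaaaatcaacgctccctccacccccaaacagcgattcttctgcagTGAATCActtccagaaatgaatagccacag

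The MALAT1 start sites differed in composition. The window of start site 1 had 73.7% G and C and 37 CpG pairs, and that of start site 2 had 46.0% and 14 CpG pairs, against medians of 58.7% and 14 over 35116 promoters. The window of start site 1 held GGGCGG, the GC box bound by SP1-family factors, 5 times. The window of start site 2 held none and had instead the TATA box TATAAA, with its first base at -30 from the start. GGGCGG lay in 5 of the 6 windows of both genes and in 45.0% of all promoters, and TATAAA in 1 of the 6 windows and in 11.5% of all promoters. The overlapping windows of LINC-PINT start sites 1 and 2 hold the same 2 GC boxes and are both counted in the 5. Letters of the metal response element, bound by the zinc sensor MTF1, were found once in each gene: TGCGCNC at -233 of MALAT1 start site 1 (20.0% of all promoters hold it) and TGCACNC at -194 of LINC-PINT start site 4 (12.1%).

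LINC-PINT start site 4, inside the gene, held the most kinds of motif. Among them was TGANTCA, a loose form of the AP-1 site, at -114 and 21 (7.71% of all promoters). N stands for any base, the matches read TGATTCA and TGAATCA, and neither is called an AP-1 site here. The window also held CCAAT at -145 (34.6%), the E-box CACGTG at -82 (7.26%) and GGGCGG at -243. The E-box overlaps ACGTG, the core of hypoxia response elements, which was counted on both strands there and also lay at -112 of start site 3 (21.4% of all promoters). TGACGT (cAMP response), GAANNTTC (heat shock) and AAGATGG (YY1) were in none of the 6 windows and in 7.98%, 6.77% and 5.84% of all promoters. A match describes letters only, and the array does not say which start site a transcript came from.

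MALAT1 was higher in the compressed culture in each of its 3 probe sets, by 2.64-fold to 3.00-fold. All values are log2 RMA signals, a background-corrected and quantile-normalized brightness. Probe set 17117542 read 11.23 in the compressed and 9.66 in the uncompressed culture, a difference of 1.57 (2.96-fold). Probe set 16726891 read 10.89 in the compressed and 9.31 in the uncompressed culture, a difference of 1.59 (3.00-fold). The third, 16740406, read 8.88 in the compressed and 7.48 in the uncompressed culture, a difference of 1.40 (2.64-fold). The compressed value was thus the higher one in all 3, and the 3 differences lay within 0.18 of each other although their signals spanned over 2 log2 units. Signals of different probe sets also depend on their probes, so no level is set against another here.

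LINC-PINT was higher in the compressed culture in each of its 3 probe sets as well, and these differed more among themselves. Probe set 17062945, which the annotation ties to 1 LINC-PINT transcript, read 7.18 in the compressed and 5.74 in the uncompressed culture, a difference of 1.45 (2.73-fold). Probe set 17124904, tied to the same transcript, read 5.35 in the compressed and 3.79 in the uncompressed culture, a difference of 1.56. Probe set 17062955, tied to another LINC-PINT transcript, read 4.94 in the compressed and 3.92 in the uncompressed culture, a difference of 1.02. The first probe set alone had a mean of at least 4.79, the median gene level, which served as a floor. The other 2 lay under it in the uncompressed culture, where it is unknown whether they were above background, so no fold is given for them. The smallest of the 3 differences, 1.02, belongs to the probe set of the other transcript.

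**Figure D1:**
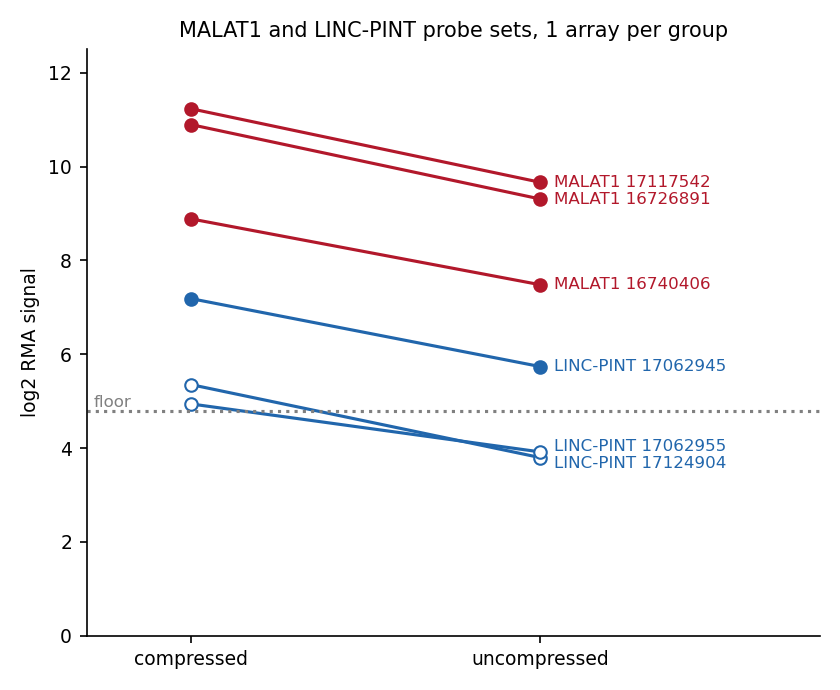
Log2 RMA signal (vertical axis) of the 3 MALAT1 probe sets (red) and the 3 LINC-PINT probe sets (blue) in the compressed and the uncompressed culture, 1 array each, with each line joining a probe set's values. Open circles are probe sets with a mean under the floor of 4.79 (dotted), and all 6 lines are higher on the compressed side.

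In all, 6 of 6 probe sets passed 1.5-fold (0.58 on the log2 scale) on the side of the compressed culture, where 3.94% of all named probe sets did. Of the 4 at or above the floor, 4 passed, where 4.14% of the named probe sets at or above the floor did. The members were chosen on this contrast, so nothing is read from these counts. The differences ranged from 1.02 to 1.59 with a mean of 1.43, and the median over all probe sets was 0.00. Using the brightest probe set per gene, MALAT1 had the 20th and LINC-PINT the 24th largest positive difference of 7442 genes at or above the floor (kept genes below). Among named probe sets within 0.5 log2 units of its own mean, 3 of 105 differed by as much as the brightest MALAT1 probe set. These include itself and MALAT1 probe set 16726891. For the brightest LINC-PINT probe set the count was 9 of 2190, itself included.

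**Figure D2:**
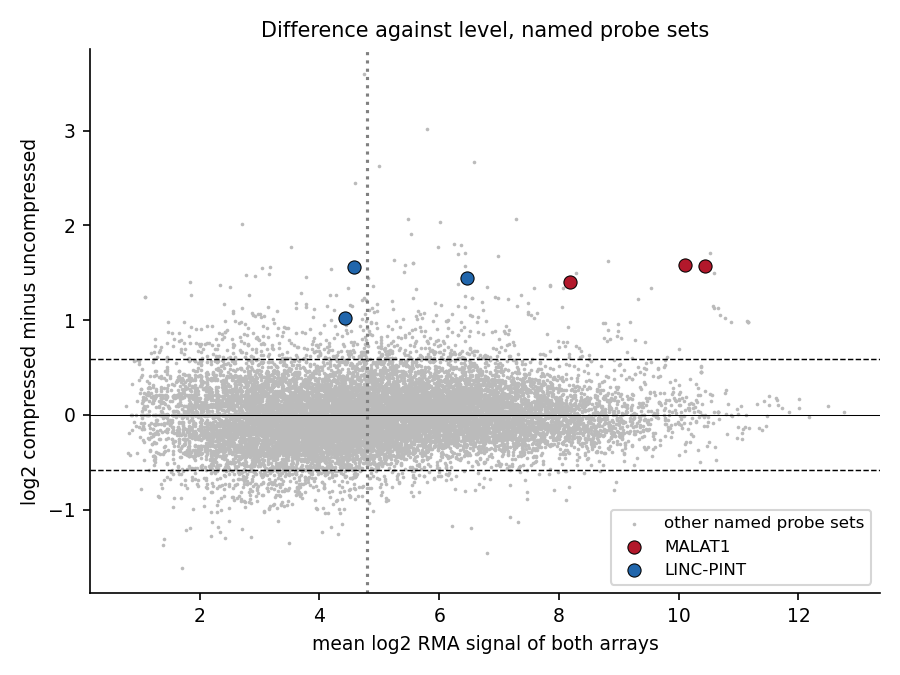
Difference compressed minus uncompressed (vertical axis, log2) against the mean log2 RMA signal of both arrays (horizontal axis) for named probe sets. The dashed lines mark 1.5-fold, the dotted line the floor of 4.79, and the 6 MALAT1 (red) and LINC-PINT (blue) probe sets lie between 1.02 and 1.59.

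The probe sets of each gene shared a direction and all passed 1.5-fold. Of 109 genes with at least 3 probe sets of distinct values, 7 had every probe set past 1.5-fold on the side of the compressed culture, and 28 had every probe set with a positive difference. The smallest difference within a gene was 1.40 for MALAT1 and 1.02 for LINC-PINT. The other 5 were the heat shock protein genes HSPA1B (smallest 0.98) and HSPA1A (0.98) and the long non-coding RNAs LINC01000 (0.67), MIR4435-2HG (0.61) and CYTOR (0.59), chosen after their values were seen. HSPA1A and HSPA1B are near-identical, and so are CYTOR and MIR4435-2HG, so their probes may share targets. Probe sets of 1 gene share the same 2 arrays and are not replicates of compression.

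**Figure D3:**
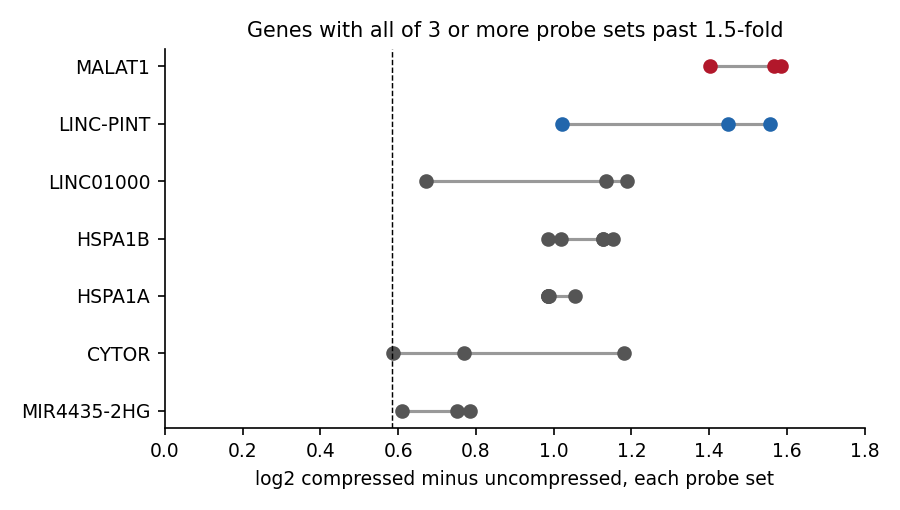
Difference compressed minus uncompressed (log2, horizontal axis) of each probe set of the 7 genes whose probe sets, at least 3 of distinct values, all passed 1.5-fold (dashed line), with a grey line over each gene's range. MALAT1 spans 1.40 to 1.59 and LINC-PINT 1.02 to 1.56.

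The strand that each probe set reads is not given in the annotation used here, and this matters for MALAT1. The gene lies on the plus strand, and an antisense RNA, TALAM1, overlaps it in RefSeq. The 10 named probe sets with the IDs nearest to 16740406 all belong to genes of chromosome 11, and of the 8 whose genes have a single strand among the RefSeq promoters, 7 are on the minus strand. For 16726891 the 10 nearest were also genes of chromosome 11, with 9 of 9 on the plus strand. For 17117542, the brightest and the one used for MALAT1 at gene level, 0 of the 10 lay on chromosome 11, so its ID says nothing of its strand. Which probe sets read MALAT1 and which its antisense partner was not tested. Without 16740406 the mean difference of MALAT1 was 1.58, against 1.52 with it. The IDs nearest to the LINC-PINT probe sets 17062945 and 17062955 belonged to minus-strand genes, the strand of LINC-PINT, in 6 of 6 cases with a single strand each. For 17124904 only 4 of the 10 nearest lay on chromosome 7. Of the same 10, 4 had a single strand, 3 minus and 1 plus, and these need not be the 4 on chromosome 7.

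NEAT1 itself has no value, but 1 named probe set lies inside its annotated span. It is that of the microRNA gene MIR612, which read 4.47 in the compressed and 4.40 in the uncompressed culture, under the floor, with a difference of 0.07. This is a value of the microRNA's probe set and gives no level of NEAT1.

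Genes next to MALAT1 and NEAT1 differed far less than MALAT1 itself. Of the 20 nearest genes with a named probe set, 10 before NEAT1 and 10 after MALAT1, 16 were kept, 0 passed 1.5-fold on the higher side and 1 on the lower, and the median difference was 0.15. Over all kept genes 3.95% were higher and 1.12% lower by that size, with a median of 0.01. FRMD8, the nearest named gene before NEAT1, which encodes a regulator of the protease ADAM17, read 4.76 in the compressed and 4.92 in the uncompressed culture. LTBP3, a binding protein of latent TGF-beta and the nearest gene with a named probe set after MALAT1, read 6.09 in the compressed and 5.88 in the uncompressed culture. ZNRD2 had the largest positive difference, 0.48 (8.56 in the compressed and 8.08 in the uncompressed culture), followed by the Rap GTPase-activating gene SIPA1 at 0.47 and PCNX3 at 0.41. RELA, the NF-kB subunit gene, differed by 0.24. The 1 lower gene was the microRNA gene MIR4489 (5.24 in the compressed and 5.88 in the uncompressed culture).

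Around LINC-PINT, 7 of the 20 nearest named genes were kept, 0 passed 1.5-fold in either direction, and the median difference was -0.07. PODXL, which encodes the sialomucin podocalyxin and is the next named gene after LINC-PINT, read 5.79 in the compressed and 5.58 in the uncompressed culture. KLF14, a Kruppel-like factor gene, read 5.47 in the compressed and 5.56 in the uncompressed culture. MEST, an imprinted gene, had the largest negative difference of the 7, at -0.16. The microRNA genes MIR29B1 and MIR29A are the nearest named genes on the other side. MIR29A read 1.753 in the compressed and 1.55 in the uncompressed culture, and MIR29B1 1.17 in the compressed and 1.36 in the uncompressed culture, both far under the floor. CPA4 and AGBL3, also under the floor, had the largest positive differences, 0.56 each.

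Among long non-coding RNAs as a class, MALAT1 and LINC-PINT had the 2nd and the 3rd largest positive difference of 209 kept genes. Of these, 18 (8.61%) passed 1.5-fold on the higher side and 0 (0%) on the lower, around a median difference of 0.05. Of 6876 kept protein-coding genes, 247 (3.59%) passed on the higher side and 67 (0.974%) on the lower, around a median of 0.01. With no floor, 67 of 1398 long non-coding genes (4.79%) were higher and 55 (3.93%) lower. The long non-coding counts on the higher side include MALAT1 and LINC-PINT, which were chosen on this contrast. They also hold both CYTOR and MIR4435-2HG, whose probes may share targets. Nothing is therefore read from these shares. LINC00707, chosen after its values were seen, was the only kept one with a larger difference, 1.58 (6.22 in the compressed and 4.64, under the floor, in the uncompressed culture).

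Other long RNAs listed as held in the nucleus mostly had no named probe set or were too dim to compare. The RNAs TERC, RMRP and RPPH1, all kept, were counted in other lists below. Of 16 listed, 6 had a named probe set and 2 were kept. HOTAIR, a HOX-locus RNA, read 4.92 in the compressed and 4.69 in the uncompressed culture, and HOTTIP, its counterpart at another HOX locus, 5.08 in the compressed and 4.93 in the uncompressed culture. KCNQ1OT1, the imprinted antisense RNA, read 3.18 on both arrays, MEG3 3.04 in the compressed and 3.25 in the uncompressed culture, and MIAT 3.89 in the compressed and 3.93 in the uncompressed culture. GAS5-AS1, an antisense RNA, differed by 0.66, past the 1.5-fold size, but lay under the floor on both arrays (4.24 in the compressed and 3.58 in the uncompressed culture).

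RNAs that act in the cytoplasm or host small nucleolar RNAs, with the small RNAs RMRP and TERC, had positive differences in 12 of 13 kept genes, of which 3 passed 1.5-fold on the higher side and 0 on the lower. The median difference was 0.25, beside 0.01 over all kept genes. Of all kept genes, 3.95% passed on the higher side and 1.12% on the lower. These shares also stand beside the counts of the gene lists below. The share of all kept genes with a positive difference was not counted. CYTOR was 1.70-fold higher (9.83 in the compressed and 9.06 in the uncompressed culture), and TERC, the telomerase RNA, 1.54-fold higher (8.70 in the compressed and 8.08 in the uncompressed culture). GAS5, a small nucleolar RNA host, read 8.26 in the compressed and 7.68 in the uncompressed culture, just past the log2 size of 0.585 at 0.587. It did not pass after loess correction (0.581) or repeated quantile normalization (0.565 to 0.578). NORAD, an abundant cytoplasmic RNA that binds Pumilio proteins, read 10.57 in the compressed and 10.32 in the uncompressed culture. RMRP, the RNA of RNase MRP, read 12.77 in the compressed and 12.74 in the uncompressed culture, a difference of 0.03. It was 0 after repeated quantile normalization over named probe sets, which left 11 of the 13 genes positive.

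Protein genes of nuclear speckles, where MALAT1 gathers, differed little as a list. Of 27 kept members, 2 passed 1.5-fold on the higher side and 0 on the lower, around a median of 0.07. Both were kinases that phosphorylate SR proteins. CLK1 read 6.42 in the compressed and 5.51 in the uncompressed culture (1.88-fold higher), and CLK2 5.36 in the compressed and 4.73 in the uncompressed culture, a difference of 0.63. No fold is given for CLK2, whose uncompressed value was under the floor. CLK4, whose uncompressed value of 4.76 was also under the floor, differed by 0.53, and CLK3 by 0.44. All 4 genes of the family, chosen after their values were seen, thus had positive differences. Of the 27 kept members of the list, 16 had a positive and 10 a negative difference, so nothing is read from the shared sign. Among the SR protein genes SRSF11 differed by 0.51 and SRSF6 by -0.42, the extremes, while SRSF1 differed by -0.07 and SRSF2 by -0.10. The speckle scaffold genes SRRM2 and SON differed by 0.23 and 0.04.

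Paraspeckle protein genes showed no shared difference. Of 22 kept members, 11 had a positive and 11 a negative difference (6 and 16 after repeated quantile normalization), 1 passed 1.5-fold on the higher side and 0 on the lower, and the median was -0.02. The 1 was HNRNPA1, a splicing repressor gene, which read 6.07 in the compressed and 5.48 in the uncompressed culture (a difference of 0.59). It did not pass after loess correction (0.57) or repeated quantile normalization (0.53). Of the core NEAT1-binding proteins, SFPQ read 5.97 in the compressed and 5.95 in the uncompressed culture, and PSPC1 6.25 in the compressed and 6.29 in the uncompressed culture. The largest negative differences were those of HNRNPF (-0.22), HNRNPUL1 (-0.19) and HNRNPK (-0.18), the last known to act in NEAT1 isoform choice.

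Factors that process the MALAT1 end, bind the RNA or methylate it had a median of 0.00 over 15 kept members, of which 1 passed 1.5-fold on the higher side and 0 on the lower. HNRNPC, whose protein binds a methylation-dependent hairpin of MALAT1, read 6.91 in the compressed and 6.09 in the uncompressed culture (1.78-fold higher). METTL3, the catalytic subunit of the adenosine methyltransferase that marks this RNA, differed by 0.46, and METTL16, which binds the triple helix, by -0.05. RPPH1, the RNA subunit of RNase P, differed by 0.11. ELAC2, the RNase Z that trims the released fragment, had the largest negative difference of the list, -0.21. Of 14 kept genes of nuclear RNA decay, 0 passed in either direction, with a median of 0.05, which was -0.04 with the mean in its place. Their extremes were the exosome subunit genes EXOSC4 (0.37) and EXOSC5 (-0.33).

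PRC2 genes, tied to LINC-PINT by its binding, held 1 gene past 1.5-fold. Of 9 kept PRC2 genes, 7 had a negative difference, 1 passed 1.5-fold on the higher side and 0 on the lower, and the median was -0.16. EZH1, the alternative methyltransferase subunit, was the 1 (6.22 in the compressed and 5.33 in the uncompressed culture, 1.85-fold higher). EZH2, the main methyltransferase subunit, read 7.68 in the compressed and 7.89 in the uncompressed culture, and RBBP4, a histone-binding subunit, had the largest negative difference, -0.30. PHF1, an accessory subunit, is counted as negative from its brightest probe set (-0.21), while its other 2 probe sets differed by 0.34 and 0.38.

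**Figure D4:**
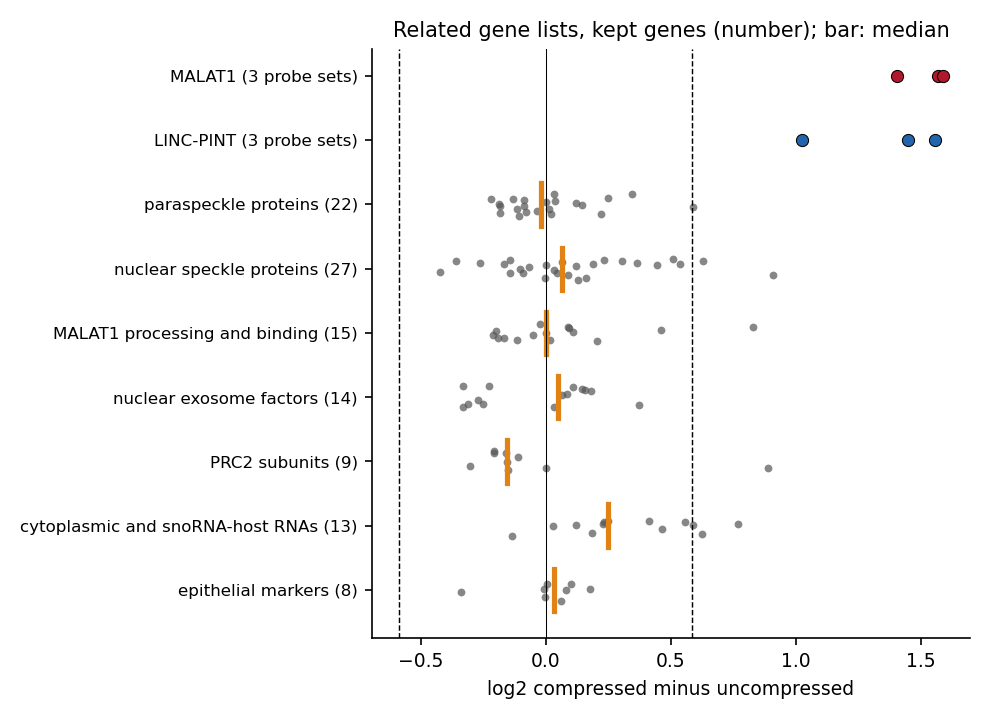
Difference compressed minus uncompressed (log2, horizontal axis) of MALAT1 and LINC-PINT probe sets and of the kept genes of each list (grey points, number in brackets, spread vertically for view), with the list median as an orange bar. Dashed lines mark 1.5-fold, only lists with 8 or more kept genes are drawn, and the grey points past the right dashed line are HNRNPA1, CLK1, CLK2, HNRNPC, EZH1, CYTOR, TERC and GAS5.

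Over all lists 112 different genes were kept, and 0 had a difference as large as that of LINC-PINT. The largest was that of CLK1, 0.91. The members were picked for their difference and the lists with earlier results known, so nothing is read from this count. Both arrays gave the very same value for 3 of the 112 genes and for 5.82% of all probe sets.

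By distance in the plane of both log2 values, over 2 arrays, the 3 named genes closest to MALAT1 were MT1G (0.15), MT1X (0.21) and HSPA1B (0.73). The closest to LINC-PINT were KLF7 (0.14), THBS1 (0.19) and HMOX1 (0.19). The metallothionein gene MT1G read 11.38 in the compressed and 9.67 in the uncompressed culture, and KLF7, a Kruppel-like factor gene, 7.06 in the compressed and 5.80 in the uncompressed culture. This measure also counts a probe set's brightness, and 2 points cannot show a shared pattern.

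Markers of an epithelial line were present. Of 10 named epithelial markers 8 were kept, and 0 of these passed 1.5-fold. KRT18 read 11.71 in the compressed and 11.54 in the uncompressed culture, and KRT19 10.79 in the compressed and 10.78 in the uncompressed culture. KRT7 lay under the floor on both arrays, at 3.78 in the compressed and 3.36 in the uncompressed culture. The 3 named endothelial markers were under the floor, from 2.68 to 4.09 in the compressed and from 2.77 to 4.37 in the uncompressed culture. Of 2 named fibroblast markers DCN was far under it, at 1.82 in the compressed and 1.79 in the uncompressed culture. LUM was not, at 9.39 in the compressed and 9.75 in the uncompressed culture. Of 4 named immune markers CD14 and CD163 were under it. LYZ read 8.82 in the compressed and 9.04 in the uncompressed culture. CD68, a lysosomal gene active in many cells, passed 1.5-fold, at 9.26 in the compressed and 8.45 in the uncompressed culture (a difference of 0.81). The mean over the immune markers was 6.05 in the compressed and 5.91 in the uncompressed culture. Their part in the MALAT1 and LINC-PINT differences was not tested. In such bulk RNA a change in the number of cells of a kind and in the RNA per cell cannot be told apart.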

How the data were processed

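Total RNA of 2 AsPC-1 cultures was measured on 2 arrays, grouped by the treatment label. Per the submitters' processing notes, the authors used RMA and Transcriptome Analysis Console software. The deposited values are log2 signals. RMA equalises the arrays' distributions, so a change shared by all genes is removed and small signals are compressed. Detection calls were not used here. Software versions were not stated, and a genome build is not given in the sources used here.

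Platform annotation named 16098 probe sets with 1 gene each, and all 16098 identifiers were found in the RefSeq table (GRCh38.p14), which gave symbols, biotypes and gene order. The other 37519 are unnamed here. For gene counts the brightest of a gene's probe sets was used, and 7442 of 14884 genes with a mean at or above the median of 4.79 were kept. Differences are compressed minus uncompressed, counted at 1.5-fold, with no test. Members and lists were chosen with earlier results of these data known. Named genes are the members, the 10 nearest named genes on each side, list members past 1.5-fold or at the extremes, and the 3 genes closest in level. Other list genes, named for their role, were chosen after their values were seen. The result of 1 gene list and 1 motif is not reported here. Alternatives were other floors, sizes, probe set summaries, centring, loess (span 0.3) and repeated quantile normalization. Computations used Python 3.11.15 with pandas 2.3.3, NumPy 2.4.6, statsmodels 0.14.6 for loess and matplotlib 3.10.9 for figures.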

Additional observations from a re-analysis of the deposited data

How the results depend on the processing

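No paired analysis was possible because each group has 1 array. In place of a spread between replicates, a difference was taken as moved where it shifted by more than 0.187, or by the matching error of a list's median. The 0.187 is the SD of the disagreement between 2 probe sets of 1 gene in their difference, scaled to a single probe set. It comes from 141 protein-coding genes. Both probe sets share the same 2 arrays, so it does not measure a spread between cultures or arrays. A count was taken as moved where it changed by more than 1.5-fold. All 6 member probe sets kept their direction and passed 1.5-fold under loess and both repeated quantile normalizations. MALAT1 values ran from 1.38 to 1.61 and LINC-PINT values from 1.03 to 1.60. Centring could change nothing, because the median difference over all probe sets was already 0. Over all probe sets of a gene the mean was 1.52 for MALAT1 and 1.34 for LINC-PINT. Leaving out the MALAT1 probe set 16740406, an alternative chosen after seeing the data, gave 1.58. The counts of kept genes, 294 higher and 83 lower, became 560 and 421 with no floor, 137 and 30 with a floor at the 75th percentile, 71 and 6 at 2-fold, 1005 and 616 at a log2 size of 0.32, and 47 and 16 over non-coding biotypes alone, as fewer or more genes or a different size were counted. With the 75th percentile floor the median was -0.078 for paraspeckle and -0.10 for RNA decay genes. With repeated quantile normalization over named probe sets it was -0.076 for paraspeckle and -0.017 for RNA decay genes. Summarised by the mean, the lists were at 0.11 for speckle, -0.041 for RNA decay and -0.045 for PRC2 genes and 0.33 for cytoplasmic and host RNAs. The cause of these list shifts was not tested, and the paraspeckle, MALAT1 processing and binding, and RNA decay medians have no settled sign. Of 86 alternative values, 68 did not move and 18 moved. The centred values of the 6 member probe sets, counted among the 68, could not move. Nor could the no-floor medians of the paraspeckle, speckle, MALAT1 processing and binding, RNA decay and PRC2 lists, whose named genes were all kept. The same holds for the MALAT1 processing and binding median over all probe sets, as its genes have 1 named probe set each. Signal over background could not be judged without detection calls, which limits the 2 dim LINC-PINT probe sets most.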
